A study of Rattus norvegicus with 48 samples.

Results

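The miR-466 family in rat liver was followed over 16 dose and time groups of thioacetamide (TAA) treatment. Every mature miRNA of the count table whose name starts with rno-miR-466 was taken, which gave 7 of the 764 mature names: rno-miR-466b-5p, rno-miR-466c-5p, rno-miR-466b-3p, rno-miR-466b-2-3p, rno-miR-466b-4-3p, rno-miR-466c-3p and rno-miR-466d, written without the prefix from here on. The members are chosen by name, but the family was selected on the number of conditions in which its 5p members were called different from the time-matched controls in earlier results of these data. TAA is a hepatotoxicant that causes liver tumours in rodents. The animals were male Sprague-Dawley rats, and each time point (3, 7, 14 and 28 days of daily dosing) had its own control group, given vehicle without TAA (0 mg/kg). The low, middle and high dose groups were given 4.5, 15 and 45 mg/kg a day. Small RNA from a small section of the liver of each of 48 rats was sequenced, with 3 rats in each group. The animals' ages are not given in the labels used here, and all groups shared strain and sex.

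A miRNA is cut from the stem of a hairpin transcript, and either arm of the stem, 5p or 3p, can be kept as the mature molecule. Bases 2 to 8 of the mature molecule, the seed, do most of the pairing with target transcripts. The miR-466 hairpins of rodents belong to a repeated group of intronic miRNA genes in Sfmbt2, a polycomb-group gene. In the mouse this locus is imprinted and is known for its activity in the placenta.

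Mature sequences for 6 of the 7 names were matched in RefSeq (rat assembly GRCr8) and are shown because they decide how far reads of one member can be told from those of another. Capitals mark the seed.
miR-466b-5p: uAUGUGUGuguguauguccaug
miR-466c-5p: uGUGAUGUguguauguacaug
miR-466b-2-3p: aUAUACAUacacacauacaca
miR-466b-3p: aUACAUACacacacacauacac
miR-466c-3p: uAUACAUGcacacauacacac
miR-466d: aUGUGUGUguauguucuuuugu
miR-466b-4-3p is named only.

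The 5p sequences are runs of U and G with 17 of 22 such letters in miR-466b-5p and 16 of 21 in miR-466c-5p. The 3p sequences are their A and C counterparts, with 16 to 19 such letters. The 6 sequences had 6 distinct seeds, and 0 other rat miRNAs of the RefSeq table shared a seed with any of them. miR-466b-5p and miR-466c-5p differed by an edit distance of 4, and their longest shared run was 11 bases, which includes the last bases of neither. The closest pair was miR-466b-2-3p and miR-466c-3p with an edit distance of 3. The members are thus close relatives with different seeds rather than copies of one sequence, and the authors' counting assigned reads to each of them separately.

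All the hairpins with a RefSeq entry lie on the minus strand of chromosome 17 within Sfmbt2, spread over 32575 bases. miR-466b-5p is encoded at chr17:72942513-72942534 (Mir466b-2) and again, with the same letters, at chr17:72945547-72945568 (Mir466b-1). miR-466c-5p lies at chr17:72927649-72927669 and its opposite arm miR-466c-3p at chr17:72927610-72927630. miR-466b-2-3p lies at chr17:72942475-72942495, miR-466b-3p at chr17:72945512-72945533 and miR-466d at chr17:72913060-72913081. No other mature miRNA of the RefSeq table lay within 10000 bases of a member. Of the names beginning with miR-297, miR-467, miR-468 or miR-669, looked up as possible relatives, the table held 1, and it had 0 reads.

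In all libraries rno-miR-466b-5p had 8338 reads and rno-miR-466c-5p had 42380. The family had 59217 reads over the 48 libraries. miR-466c-5p took 71.6% of them and miR-466b-5p took 14.1%, while the 3p members together held 14.3%. miR-466b-2-3p and miR-466b-4-3p had identical counts in every library, so they hold the same reads and are described once, as miR-466b-2-3p. The 4 precursor entries of miR-466b-5p were also identical. A level of at least 5 RPM (reads scaled to a common library size) in at least 3 libraries was reached by 6 names, that is 5 separate sets of reads, among 301 miRNAs that were tested. The filter was met in 48 libraries by miR-466c-5p and in 46 by miR-466b-5p. miR-466b-2-3p reached it in 22 libraries, of which 21 were from treated rats, and miR-466c-3p in 14, of which 13 were from treated rats. miR-466b-3p reached it in only 3 libraries, 2 of them controls. miR-466d had 19 reads in all and did not pass.

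Library totals lay between 293331 and 14906217 reads, with a median of 10237542. Control 3-d replicate 1 had the lowest total, and the next was 4829217. This library held 6 reads of miR-466b-5p, 8 of miR-466c-5p, 6 of miR-466b-3p and 0 of miR-466b-2-3p and miR-466c-3p, where 3 reads amount to 10.2 RPM. Its summed level of red blood cell miRNAs (miR-451-5p, miR-486 and miR-144-3p) was 81062 normalized RPM against a median of 4892 in the 12 controls. Its summed level of hepatocyte miRNAs (miR-122-5p, miR-192-5p and miR-194-5p) was 102809, against a median of 239360. Levels below are given as upper quartile normalized RPM, that is RPM scaled so that the upper quartile of the tested miRNAs matches between libraries. Across the 36 treated livers, hepatocyte miRNAs summed to between 202176 and 381027 normalized RPM, and their defining markers were present. In a section of liver tissue, fewer cells of a type and less RNA per cell cannot be told apart.

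Both 5p members stood above their time-matched controls in most treated groups. The members were chosen with these comparisons known, so the values against controls are a description without a test. miR-466b-5p lay between 4.7 and 16.9 normalized RPM in the 12 controls (median 7.45) and between 7.3 and 50.1 in the 36 treated livers (median 17.6). The highest control was control 3-d replicate 1, and 10.7 was the highest of the 11 others. miR-466c-5p lay between 22.6 and 75.5 in the controls (median 55.6) and between 54.5 and 174 in the treated livers (median 90.3). Of the 36 treated livers, 20 were above every control for miR-466b-5p and 24 for miR-466c-5p. For miR-466b-5p the bar was control 3-d replicate 1 (6 reads), which was the lowest control for miR-466c-5p. These counts therefore cannot be set against each other, and the share of all tested miRNAs was not computed.

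**Figure D1:**
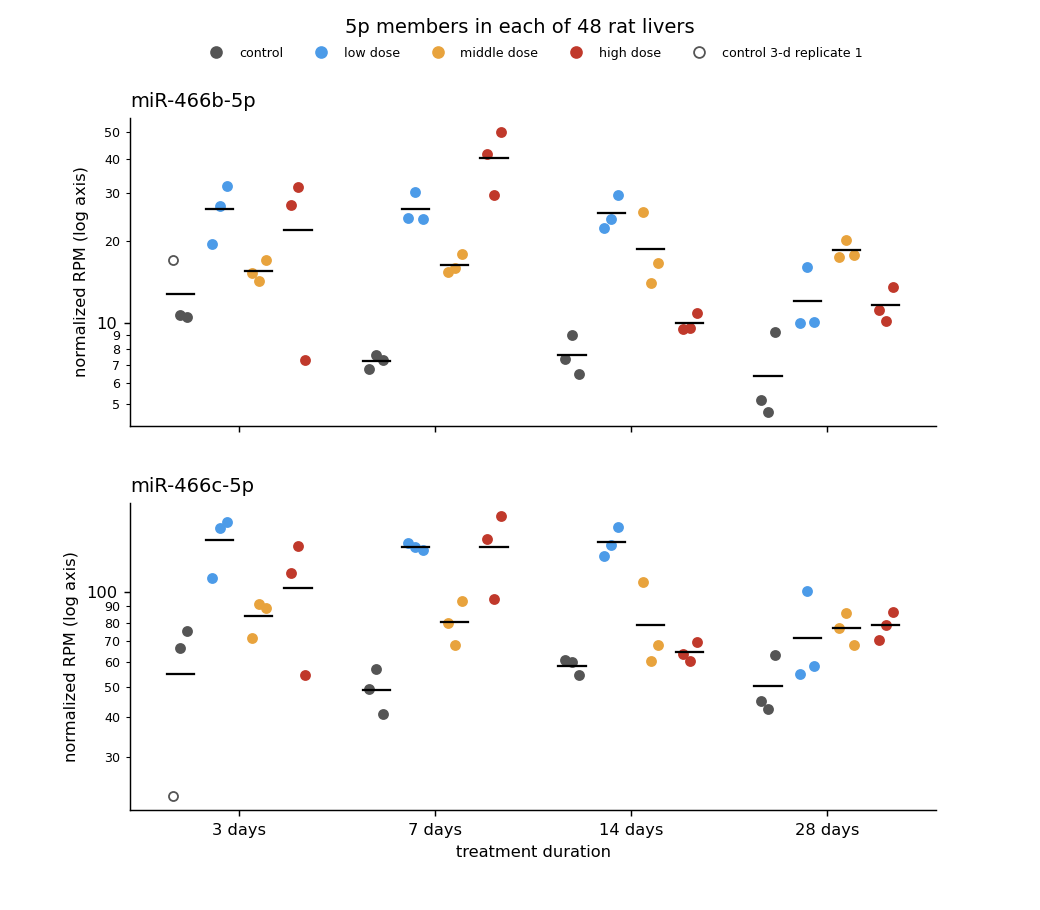
Normalized RPM of miR-466b-5p (top) and miR-466c-5p (bottom) on log axes in 48 rat livers by treatment duration. Each point is a rat, colours are doses, bars are group means of 3 rats and the open point is control 3-d replicate 1. The 3 high dose livers at 7 days hold the highest miR-466b-5p mean (40.4), while those at 14 days (9.5 to 10.8) lie just above their controls.

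The 7-d groups showed the clearest separation. Control livers had 6.7, 7.6 and 7.3 normalized RPM of miR-466b-5p at 7 days. The low dose livers had 24.3, 30.2 and 24.1, the middle dose livers 15.3, 15.8 and 17.9, and the high dose livers 41.8, 29.4 and 50.1. Every treated liver was above every control, and the high dose livers overlapped the low dose livers only through replicate 26. The log2 fold changes were 1.86 (SE 0.16) at low, 1.18 (SE 0.14) at middle and 2.48 (SE 0.24) at high dose, the last being 5.60-fold. For miR-466c-5p the controls had 49.1, 56.9 and 40.9 normalized RPM at 7 days. The low dose livers had 143, 139 and 136, the middle dose livers 80.0, 67.8 and 93.9, and the high dose livers 147, 95.1 and 174. These groups also lay wholly above the controls, with log2 fold changes of 1.5 (SE 0.14), 0.72 (SE 0.16) and 1.5 (SE 0.26). For comparison, the treated and control ranges were apart with the treated group higher for 30.2%, 24.3% and 22.6% of the 301 miRNAs at low, middle and high dose.

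At 3 days the picture was less uniform, and the controls include the library of low depth. miR-466b-5p had 16.9, 10.7 and 10.5 normalized RPM in the controls, 19.5, 26.9 and 31.8 at low dose, 15.2, 14.3 and 17.03 at middle dose and 26.99, 31.5 and 7.3 at high dose. Only the low dose livers were all above the controls, and high dose replicate 24 was below each of them. The log2 fold changes were 1.15 (SE 0.32), 0.39 (SE 0.38) and 0.88 (SE 0.60). The same high dose liver was lowest of its group for miR-466c-5p, with 54.5 against 115 and 140 normalized RPM. The low dose livers had 111, 160 and 167 normalized RPM of miR-466c-5p, against 22.6, 66.4 and 75.5 in the controls. Without control 3-d replicate 1 the low dose log2 fold change of miR-466c-5p was 1.04 instead of 1.36, that of the middle dose 0.24 instead of 0.57 and that of the high dose 0.54 instead of 0.87. The high dose value of miR-466b-5p was 0.51 without high 3-d replicate 23 and 1.30 without high 3-d replicate 24. Ranges were apart with the treated group higher for 28.6%, 7.97% and 17.6% of all tested miRNAs at low, middle and high dose.

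The order of the doses was different at 14 days. miR-466b-5p had 7.3, 9.0 and 6.5 normalized RPM in the controls, 22.2, 23.996 and 29.4 at low dose, 25.4, 14.0 and 16.6 at middle dose and 9.5, 9.6 and 10.8 at high dose. The high dose livers thus formed a narrow group just above the controls, below all low and middle dose livers. Log2 fold changes were 1.73 (SE 0.22), 1.29 (SE 0.26) and 0.39 (SE 0.21) from low to high dose. miR-466c-5p had 60.9, 59.9 and 54.4 normalized RPM in the controls, 130, 141 and 161 at low dose, 107, 60.3 and 68.0 at middle dose and 63.8, 60.5 and 69.5 at high dose. Only the low dose livers were clear of the controls, with a log2 fold change of 1.30 (SE 0.17), against 0.43 (SE 0.21) at middle and 0.15 (SE 0.15) at high dose. The middle dose value of miR-466c-5p rests largely on replicate 31, without which it was 0.14. Treated groups lay wholly above the controls for 32.9%, 23.9% and 10.6% of tested miRNAs at 14 days.

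At 28 days the middle dose livers had the highest miR-466b-5p. miR-466b-5p had 5.2, 4.7 and 9.2 normalized RPM in the controls, 9.985, 15.98 and 10.004 at low dose, 17.4, 20.2 and 17.8 at middle dose and 11.1, 10.2 and 13.5 at high dose. All 3 dose groups were above the controls, with log2 fold changes of 0.93 (SE 0.34), 1.57 (SE 0.25) and 0.89 (SE 0.28). miR-466c-5p had 45.0, 42.5 and 63.1 normalized RPM in the controls, 55.1, 101 and 58.1 at low dose, 77.1, 85.6 and 67.8 at middle dose and 70.6, 78.5 and 86.2 at high dose. The middle and high dose livers were above the controls, whereas the low dose livers overlapped them. The log2 fold changes of miR-466c-5p were 0.51 (SE 0.29), 0.62 (SE 0.19) and 0.65 (SE 0.19). The low dose value of miR-466c-5p was 0.18 without low 28-d replicate 29, the liver with 101. Ranges were apart, treated higher, for 5.65%, 28.9% and 21.6% of tested miRNAs.

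**Figure D2:**
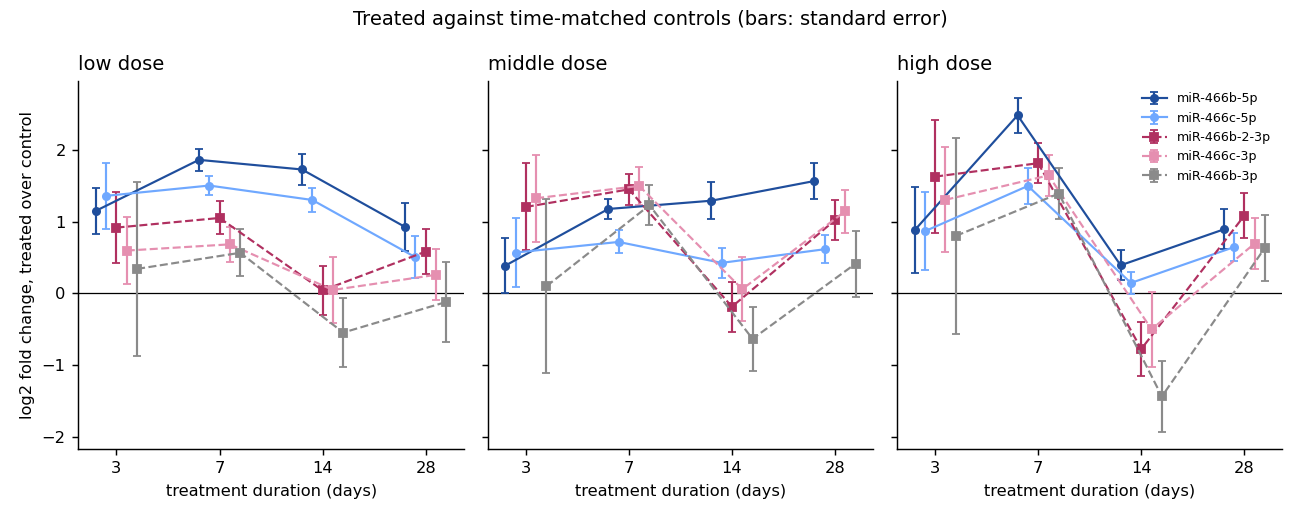
Log2 fold change of 5 miR-466 read sets against time-matched controls, by treatment duration in days and dose; points are edgeR estimates from 3 treated and 3 control rats and bars are standard errors. Solid lines are 5p and dashed lines 3p members. The 5p values stay above 0 in all 12 conditions, between 0.15 and 2.48, and the 3p values dip at 14 days.

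A differentially expressed miRNA (DEM) is one with a fold change of more than 1.5 and a p-value, not adjusted, of less than 0.05 in edgeR. By this definition miR-466b-5p was higher in 9 of the 12 conditions and miR-466c-5p in 7. Over all 301 miRNAs and 12 conditions, 12.1% of the comparisons were called higher, and 1.33% of the miRNAs were called higher in at least 9 conditions, 5.32% in at least 6. These counts are not evidence about the members, since the calls were known when they were chosen. Some of the calls turn on 1 liver. The low dose 28-d call of miR-466b-5p was lost without low 28-d replicate 29 or control 28-d replicate 16 or 17, and a high dose 3-d call was gained without high 3-d replicate 24. For miR-466c-5p the low dose 3-d call was lost without low 3-d replicate 44 or 45. Its middle and high dose 28-d calls were each lost without control 28-d replicate 16 or 17, and also without middle 28-d replicate 38 and high 28-d replicate 21, respectively. A middle dose 14-d call of miR-466c-5p was gained without middle 14-d replicate 32. By condition, the number of the 5 read sets called higher at 3 days was 2 at low (9.97% of all tested miRNAs), 0 at middle (1.66%) and 0 at high dose (6.98%). At 7 days it was 4 at low (18.3%), 5 at middle (12%) and 5 at high dose (17.9%). For the 14-d groups the numbers were 2 at low (22.9%), 1 at middle (12%) and 0 at high dose (5.65%), with miR-466b-3p called lower at high dose (3.65% of all tested miRNAs). After 28 days they were 1 at low (3.65%), 4 at middle (20.9%) and 3 at high dose (13%). miR-466b-2-3p and miR-466c-3p passed the filter almost only through treated livers, which favours calls of higher in these numbers. For comparison, miR-34a-5p, a p53-dependent miRNA, was called higher in 12 conditions, miR-6329 in 11, miR-190b-5p in 9 and miR-7a-5p in 8.

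The sum of all members followed miR-466c-5p, its largest part. The summed row was called in 7 conditions, with log2 fold changes from -0.01 (SE 0.17) at high dose 14 days to 1.67 (SE 0.21) at high dose 7 days. Summing only the 5p names also gave 7. The median of all tested miRNAs against controls reached 0.28 at high dose 3 days with upper quartile normalization and 0.05 with TMM, and the log2 fold changes of both 5p members were above 0 in all 12 conditions under every scaling run. The sum lay below miR-466b-5p in every condition at 7, 14 and 28 days: at high dose 7 days miR-466b-5p had 2.48 and the sum 1.67, and at middle dose 14 days miR-466b-5p had 1.29 and the sum 0.42.

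The dose groups of a time point were then compared with each other, to ask whether the level followed the dose. These 12 differences compare no control livers, but the controls enter the fit and its shared spread, so the tests are not free of them. The differences also share the treated livers of the comparisons above. The 48 libraries entered one edgeR quasi-likelihood fit, and p-values were adjusted by Benjamini-Hochberg over the 301 miRNAs. miR-466b-5p passed in 2 of the 12 (8 had an unadjusted p below 0.05) and miR-466c-5p in 3 (5 unadjusted), where 10.9% of all tests passed. The sum passed in 2. Leaving out a control changed some of these counts: the sum passed in 1 without control 7-d replicate 4, and miR-466c-5p in 4 without control 3-d replicate 1.

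At 14 days the high dose livers held less of both 5p members than the low dose livers. miR-466b-5p differed by -1.34 on the log2 scale (SE 0.31, edgeR adjusted p = 0.00412) and miR-466c-5p by -1.16 (SE 0.29, edgeR adjusted p = 0.00475), in a contrast that passed for 19.3% of tested miRNAs. For each of the members the 3 high dose livers were below all 3 low dose livers, a separation that was not counted over all tested miRNAs. The median of all miRNAs in this contrast was -0.14 with upper quartile normalization and 0.03 with TMM, so that part of the size depends on the scaling. Both differences passed with each library left out in turn. miR-466c-5p also differed between middle and low dose at 14 days, by -0.88 (SE 0.28, edgeR adjusted p = 0.0241; 23.3% of miRNAs passed). This call was lost with library size alone (-0.58), without a filter (-0.74), with a stricter filter (-0.70), with summed precursor rows (-0.71) and without low 14-d replicate 42 (-0.79), middle 14-d replicate 32 (-0.72) or middle 14-d replicate 33 (-0.78).

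At 7 days the high dose exceeded the middle dose for miR-466b-5p, by 1.30 on the log2 scale (SE 0.31, edgeR adjusted p = 0.0226), where 2.66% of tested miRNAs passed. In each high dose liver its level was above every middle dose liver, a separation that was not counted over all tested miRNAs. The call was lost with library size alone (1.26), without a filter (1.12), in a fit of the 6 libraries (edgeR adjusted p = 0.0705) and without high 7-d replicate 25 (1.28) or 27 (1.12) or any of the middle 7-d replicates 34 (1.26), 35 (1.28) and 36 (1.37). The difference of miR-466c-5p was 0.78 (SE 0.28) and did not pass (edgeR adjusted p = 0.171). In the comparison of middle with low dose at 7 days, miR-466c-5p differed by -0.79 (SE 0.28, edgeR adjusted p = 0.0352; 28.9% of miRNAs passed) and miR-466b-5p by -0.68 (SE 0.31, edgeR adjusted p = 0.0904). The miR-466c-5p call was lost with library size alone (-0.57), with a stricter filter (-0.68) and without low 7-d replicate 46 (-0.77), 47 (-0.79) or 48 (-0.80) or middle 7-d replicate 34 (-0.78) or 35 (-0.68). From 7 to 14 days the difference between high and low dose changed by -1.96 for miR-466b-5p (SE 0.44, edgeR adjusted p = 0.00497), where 2.99% of tested miRNAs passed, a contrast added after the data were seen. Without a filter it was -1.55 and did not pass.

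No dose difference passed for either 5p member at 3 or at 28 days. High minus low dose at 28 days was -0.04 for miR-466b-5p (95% interval -0.65 to 0.56) and 0.14 for miR-466c-5p (95% interval -0.42 to 0.69). At 3 days it was -0.25 for miR-466b-5p (95% interval -0.84 to 0.35) and -0.50 for miR-466c-5p (95% interval -1.06 to 0.06), so differences of these sizes were not resolved. Without high 3-d replicate 24, 6 of the 12 dose differences passed for miR-466b-5p and 4 for miR-466c-5p.

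Ordered by group mean, miR-466b-5p ran from 6.37 ± 2.49 normalized RPM (SD, n = 3) in the 28-d controls to 40.4 ± 10.4 in the high dose 7-d livers. Of the 15 pairs of neighbours in that order only 1 had ranges that did not overlap, the 14-d controls (7.61 ± 1.29) and the high dose 14-d livers (9.96 ± 0.74). The 3 low dose groups at 3, 7 and 14 days came just below the top, between 25.2 and 26.2. miR-466c-5p ran from 48.95 ± 7.97 in the 7-d controls to 146 ± 30.6 in the low dose 3-d livers, and 0 of its 15 neighbouring pairs were apart. The 4 highest groups, at 139 to 146 normalized RPM, were the low dose at 3, 7 and 14 days and the high dose at 7 days, and the 4 control groups were the lowest.

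In untreated liver, 1 of the 6 differences between control groups passed for a member, that of miR-466b-5p at 28 against 3 days, with -0.85 on the log2 scale (SE 0.34, edgeR adjusted p = 0.0461). In this contrast 39.5% of tested miRNAs passed, and over all 6 contrasts 13% did. All 6 use the control livers against which the calls behind the choice of the family were made, so they are not independent of that choice. The call was lost without control 3-d replicate 1, where the value was -0.76, and without control 3-d replicate 2 (-0.92) or 3 (-0.94) or control 28-d replicate 16 (-0.72) or 17 (-0.68). It was also lost without a filter (-0.84), in a fit of the 6 libraries (-0.89) and without any of 5 treated libraries that the contrast does not compare: low 7-d replicate 48, middle 7-d replicate 35, high 14-d replicates 7 and 8 and high 28-d replicate 19 (-0.86 to -0.85). For miR-466c-5p 0 of 6 passed and 0 had an unadjusted p below 0.05 in edgeR, with values between -0.28 and 0.25. The 3p members also passed in 0 of 6 with edgeR (3 unadjusted for miR-466b-2-3p, 1 each for miR-466b-3p and miR-466c-3p).

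The 3p members were scarce, and their levels followed a different course. miR-466b-2-3p lay between 0 and 9.1 normalized RPM in the controls (median 2.97) and between 2.5 and 13.9 in treated livers (median 5.71). miR-466c-3p lay between 0 and 7.2 in the controls (median 1.99) and between 1.6 and 7.7 in treated livers (median 4.14). In both cases 0 was the value of control 3-d replicate 1, where 3 reads would be 10.2 RPM. At this depth absence cannot be told from a level too low to detect. At 7 days miR-466b-2-3p had 2.7, 1.9 and 2.0 normalized RPM in the controls, 5.2, 4.4 and 4.4 at low, 6.3, 5.2 and 6.8 at middle and 8.4, 6.5 and 8.8 at high dose. All treated livers were above the controls, and the log2 fold changes were 1.05 (SE 0.23), 1.45 (SE 0.22) and 1.82 (SE 0.28). miR-466c-3p had 0.68 (SE 0.25), 1.5 (SE 0.27) and 1.65 (SE 0.28) in the same comparisons.

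**Figure D3:**
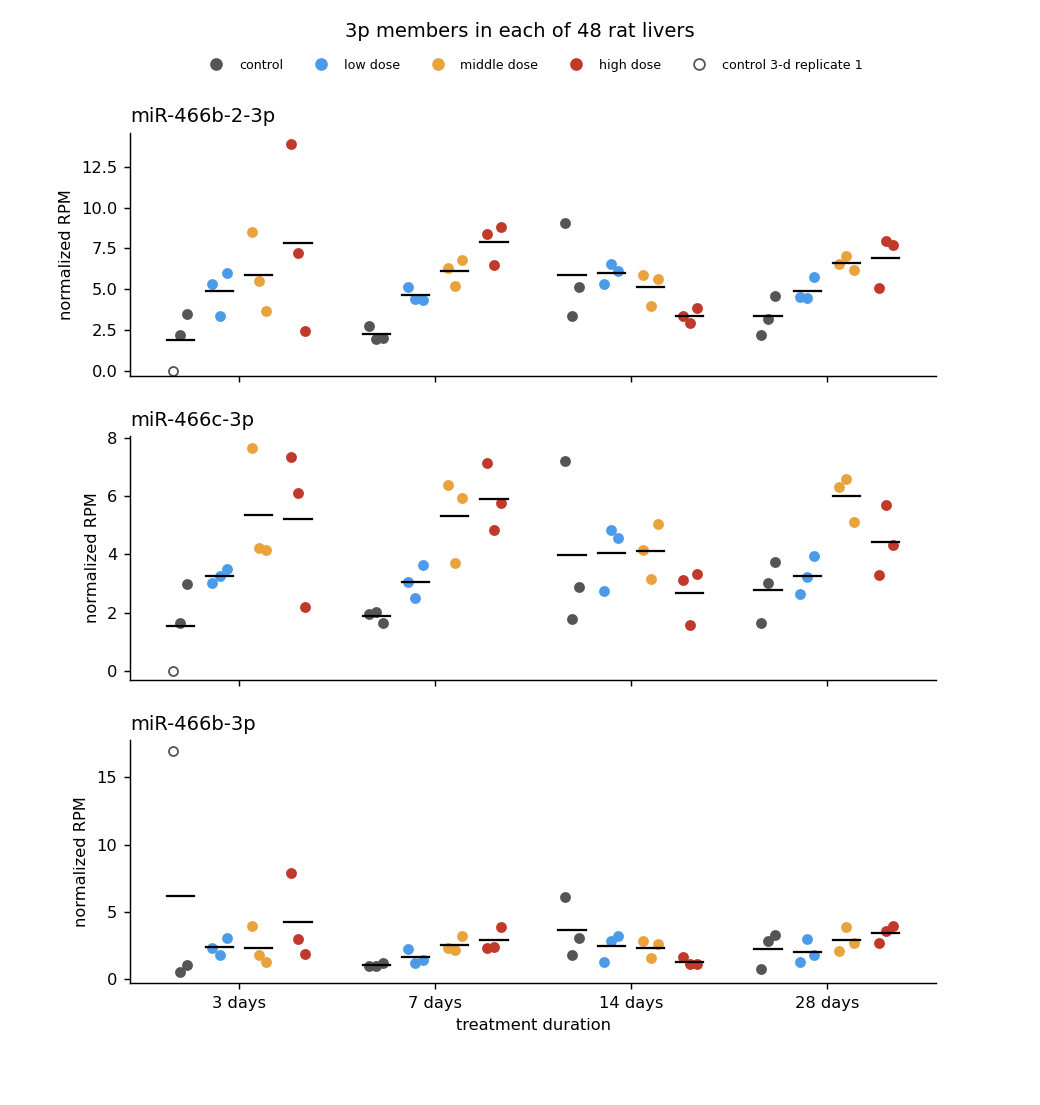
Normalized RPM (linear axes) of miR-466b-2-3p, miR-466c-3p and miR-466b-3p in 48 rat livers by treatment duration; each point is a rat, colours are doses, bars are group means of 3 rats and the open point is control 3-d replicate 1. At 14 days control replicate 13 (9.1, 7.2 and 6.1 from top to bottom) is the highest liver of that time point in each panel.

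At 14 days the 3p members did not stand above the controls. miR-466b-2-3p had 9.1, 3.4 and 5.2 normalized RPM in the 14-d controls, 5.3, 6.6 and 6.1 at low, 5.9, 3.9 and 5.6 at middle and 3.3, 2.9 and 3.8 at high dose. The highest liver was control replicate 13, which was also highest for miR-466c-3p (7.2) and miR-466b-3p (6.1), but not for miR-466b-5p (7.3). Log2 fold changes at 14 days were 0.04 (SE 0.35), -0.18 (SE 0.35) and -0.78 (SE 0.38) for miR-466b-2-3p. Without control replicate 13 they were 0.49, 0.26 and -0.33. For miR-466c-3p they were 0.05, 0.06 and -0.50 with that liver and 0.78, 0.79 and 0.23 without it. After 28 days the middle dose livers had 6.6, 7.0 and 6.2 normalized RPM of miR-466b-2-3p against 2.2, 3.2 and 4.6 in the controls, a log2 fold change of 1.02 (SE 0.27).

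miR-466b-2-3p was called higher in 5 and miR-466c-3p in 4 of the 12 conditions, which all fell at 7 or 28 days. Over all tested miRNAs and conditions 12.1% of the comparisons were called higher. Both members passed the filter almost only through treated livers (21 of 22 and 13 of 14 libraries). Calls of higher were thus favoured in advance, and these counts are a description. miR-466b-3p, the least abundant, had 5 to 85 reads in a library and was called higher in 2 conditions and lower in 1. Its 3-d values rest on the 6 reads of control 3-d replicate 1, which amount to 16.9 normalized RPM. Without that library it was called in 5 conditions, and the high dose 3-d log2 fold change was 2.40 instead of 0.80; without control 3-d replicate 2 it was -0.38. The call of miR-466b-3p as lower, at high dose 14 days (-1.44), was lost without control 14-d replicate 13 (-0.87) and without high 14-d replicate 9. Dose differences passed for 0 of the 12 contrasts in each of these members with edgeR, where 1 (miR-466b-2-3p), 2 (miR-466c-3p) and 0 (miR-466b-3p) had an unadjusted p below 0.05.

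Among treated rats, those with much of one 5p member had much of the other, and the same held among the 3p members. Across the 36 treated livers miR-466b-5p and miR-466c-5p had Pearson's r = 0.89 and Spearman's rho = 0.88, each with a permutation p = 1e-05, the smallest that 100000 resamples can give (adjusted p = 6e-05 for r and 0.0001 for rho, over 30 relations). Without the 2 livers farthest from the median r was 0.87. The permutation tests over the 36 treated livers shuffled rats across dose and time groups, so differences between group means enter their p-values. Only the tests within groups shuffled rats inside each group. Within groups, that is after subtracting group means, r was 0.91 (permutation p = 1e-05, adjusted p = 6e-05) and rho 0.84 (permutation p = 0.00018, adjusted p = 0.0009). In the 12 controls r was -0.20 (permutation p = 0.509, adjusted p = 0.509) and rho 0.43 (permutation p = 0.163, adjusted p = 0.233). The negative r rests on control 3-d replicate 1, without which r was 0.84 (permutation p = 0.0015) and rho 0.86 (permutation p = 0.00095) in 11 controls.

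Among the 3p members, miR-466b-2-3p and miR-466c-3p had r = 0.83 and rho = 0.86 over the 36 treated livers (permutation p = 1e-05 for each, adjusted p = 6e-05 and 0.0001) and r = 0.80 within groups (permutation p = 3e-05, adjusted p = 0.00015; rho 0.75, permutation p = 6e-05, adjusted p = 0.00036). Without the 2 farthest livers r was 0.82 over the treated livers. In the 12 controls r was 0.97 (permutation p = 6e-05, adjusted p = 0.000257) and rho 0.78 (permutation p = 0.00362, adjusted p = 0.0136), with r = 0.79 without the 2 farthest. Control 3-d replicate 1 had 0 reads of both. In the 11 other controls r was 0.91 (permutation p = 0.00055) and rho 0.72 (permutation p = 0.0168). miR-466b-3p and miR-466b-2-3p had r = 0.81 and rho = 0.80 in the treated livers (permutation p = 1e-05 for each, adjusted p = 6e-05 and 0.0001), and r = 0.79 without the 2 farthest. In the 12 controls miR-466b-3p had r = -0.28 with miR-466b-2-3p (permutation p = 0.351, adjusted p = 0.376; rho 0.38, permutation p = 0.218, adjusted p = 0.262) and r = -0.26 with miR-466c-3p (permutation p = 0.382, adjusted p = 0.395; rho 0.39, permutation p = 0.211, adjusted p = 0.262). Both rest on control 3-d replicate 1, without which r was 0.90 (permutation p = 0.00032) and 0.87 (permutation p = 0.00085) in 11 controls.

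The opposite arms of a hairpin were less closely tied. miR-466c-5p and miR-466c-3p, which come from the same hairpin, had r = 0.19 (permutation p = 0.268, adjusted p = 0.298) and rho = 0.20 (permutation p = 0.245, adjusted p = 0.283) in the 36 treated livers. Within groups r was 0.50 (permutation p = 0.037, adjusted p = 0.0793) and rho 0.37 (permutation p = 0.0693, adjusted p = 0.116). Their r of 0.77 in the 12 controls (permutation p = 0.0147, adjusted p = 0.0367; rho 0.41, permutation p = 0.185, adjusted p = 0.246) fell to 0.30 without the 2 farthest livers and thus rests on those. miR-466b-5p and miR-466b-2-3p had r = 0.49 (permutation p = 0.00233, adjusted p = 0.00699) and rho = 0.42 (permutation p = 0.011, adjusted p = 0.0329) in the treated livers, and r = 0.39 without the 2 farthest. With TMM the values of this pair were r = 0.41 (permutation p = 0.0132, adjusted p = 0.0396) and rho = 0.28 (permutation p = 0.0948, adjusted p = 0.203), so the rho did not pass. Within groups, with upper quartile normalization and rats shuffled inside each group, r was 0.61 (permutation p = 0.124, adjusted p = 0.162) and did not pass. It fell to 0.22 without the 2 farthest. The difference between same-arm and opposite-arm correlations was not tested, and the lower read counts of the 3p members, and the likeness of sequence within an arm, move with it.

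**Figure D4:**
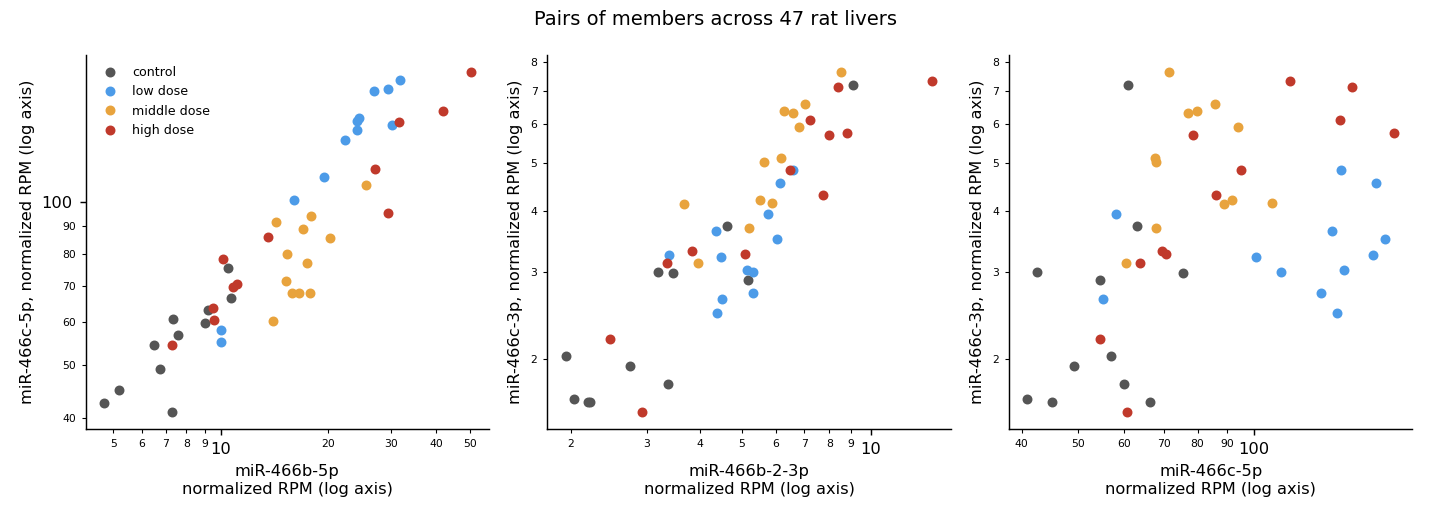
Normalized RPM of 3 pairs of members on log axes in 47 rat livers (control 3-d replicate 1 left out); each point is a rat and colours are doses. The 2 same-arm pairs (left, middle) form narrow bands (r = 0.89 and 0.83 in treated livers), whereas the opposite arms of the miR-466c hairpin (right, r = 0.19) do not.

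The ratio of members within a library does not depend on the scaling between libraries. The median library held 5.73 reads of miR-466c-5p for each read of miR-466b-5p, and the median was 7.20 in the controls and 5.36 in the treated livers. In the controls other than control 3-d replicate 1 (0.39 on the log2 scale) the log2 ratio lay between 2.48 and 3.16. The high dose 7-d livers had the lowest ratios of any treated group, 1.69 to 1.81 on the log2 scale, with a geometric mean of 3.40 reads. The middle dose livers at 14 and 28 days followed, with log2 ratios of 2.07 ± 0.04 and 2.05 ± 0.11 (SD, n = 3). The high dose livers at 14 and 28 days had 2.69 ± 0.05 and 2.76 ± 0.16, which overlapped the controls.

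Dose groups also differed in how far the 5p arm of miR-466c exceeded its 3p arm. Pooled over the time points, the median ratio of miR-466c-5p to miR-466c-3p was 24.3 reads in the controls, 36.4 at low, 14.5 at middle and 20.6 at high dose. At 7 days the log2 ratio was 4.66 ± 0.10 in controls, 5.50 ± 0.29 at low, 3.93 ± 0.27 at middle and 4.52 ± 0.34 at high dose (SD, n = 3). The low dose 7-d livers lay above and the middle dose 7-d livers below all their controls. This order did not hold at every time point. At 28 days the low dose livers (4.39 ± 0.54) overlapped their controls (4.20 ± 0.49), while the middle dose livers (3.67 ± 0.06) lay below them. At 14 days the middle dose mean (4.22 ± 0.47) was slightly above that of the controls (4.10 ± 0.99). For miR-466b-5p over miR-466b-2-3p the median ratio was 2.54 in controls, 4.40 at low, 2.87 at middle and 2.87 at high dose. These ratios are a description and carry no test.

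**Figure D5:**
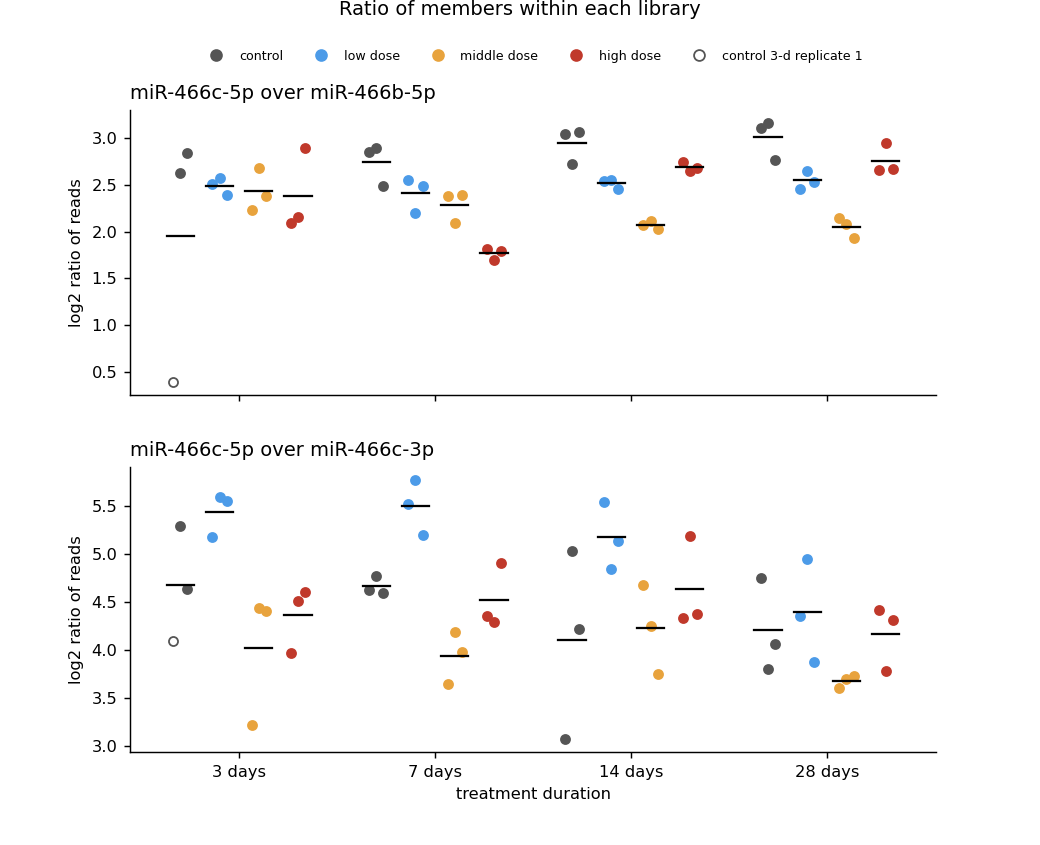
Log2 ratio of reads (0.5 added to each count) of miR-466c-5p over miR-466b-5p (top) and of miR-466c-5p over miR-466c-3p (bottom) within each of 48 libraries, by treatment duration; points are rats, colours doses, bars group means and the open point is control 3-d replicate 1. High dose livers at 7 days are lowest among treated groups in the top panel (1.69 to 1.81), and the means of the low dose groups at 3, 7 and 14 days are highest in the bottom panel.

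The miRNAs whose level followed the members most closely over the 16 group means were named by the 5 highest values of r, a description without a test. For miR-466b-5p these were miR-674-5p (r = 0.93), miR-7a-5p (0.92), miR-449a-5p (0.91), miR-466c-5p (0.90) and miR-182 (0.87). For miR-466c-5p they were miR-674-5p (0.96), miR-7a-5p (0.94), miR-25-3p (0.93), miR-190b-5p (0.91) and miR-466b-5p (0.90). The 5p members thus shared miR-674-5p and miR-7a-5p. Around miR-466b-2-3p stood miR-466c-3p (0.96), miR-499-5p (0.90), miR-3068-5p (0.87), miR-155-5p (0.83) and miR-132-3p (0.83). Next to miR-466c-3p were miR-466b-2-3p (0.96), miR-499-5p (0.92), miR-132-3p (0.86), miR-3068-5p (0.86) and let-7f-1-3p (0.84). Control 3-d replicate 1 had 0 reads of both 3p members. Without the 3-d controls, miR-466b-2-3p had r = 0.92 with miR-466c-3p and 0.80 with miR-499-5p. Its r was then 0.76 with miR-132-3p, 0.75 with miR-3068-5p and 0.62 with miR-155-5p. For miR-466c-3p it was then 0.85 with miR-499-5p, 0.80 with miR-132-3p, 0.74 with miR-3068-5p and 0.71 with let-7f-1-3p. Over the 16 group means miR-466b-3p had no close follower, with miR-214-3p (0.65), miR-21-3p (0.64), miR-342-3p (0.63), miR-191a-5p (0.59) and miR-125b-1-3p (0.59). Its 3-d control mean rests on the 6 reads of control 3-d replicate 1. Over the 15 group means without the 3-d controls, r was 0.84 with miR-466b-2-3p, 0.82 with miR-21-3p and 0.74 with miR-466c-3p. For the others named it was 0.59 to 0.66, and with the 5p members 0.26 to 0.28. The opposite arm was far down the list, since miR-466c-3p ranked 75 for miR-466c-5p (r = 0.53) and miR-466b-2-3p ranked 60 for miR-466b-5p (r = 0.52). The 16 points share libraries and scaling, and 3 rats stand behind each of them.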

How the data were processed

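Liver small RNA of 48 rats in 16 groups of 3 was sequenced on an Illumina HiSeq2000. The deposited counts come from the authors' miRDeep2 run on miRBase release 21, after removal of adaptors and of reads outside 18 to 25 bases. The submitters' processing notes name FastQC and the rn5 genome. The deposited counts are raw, and each of the 847 rows is a mature miRNA with a precursor. Replicates were not pooled, and 0 columns lacked a sample. The labels number the rats from 1 to 48, and these numbers are the replicate names.

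From these counts, the precursor row with the most reads was kept for each mature miRNA. The 301 of 664 miRNAs with a read that had at least 5 RPM in at least 3 libraries were tested by the quasi-likelihood F-test of edgeR 4.0.16 after upper quartile normalization (R 4.3.3). Each treated group was fitted with its time-matched controls as 6 libraries, and dose and control differences in a single fit of 48 libraries with a mean per group. In the fits of 3 rats against 3, the spread came from these rats and was moderated over all tested miRNAs. In the fit of 48 libraries the 16 groups shared their spread. The p-values of dose and control differences thus do not measure the spread of the 6 rats compared alone. Standard errors came from the fold change and the F statistic, and intervals use 1.96 of them. Within-library ratios used 0.5 counts as pseudocount and correlations log2 (normalized RPM + 0.5), with 2-sided permutation tests (scipy 1.17.1) of 100000 resamples. Rats were shuffled freely over the treated livers and over the controls, and inside groups after subtraction of group means. Python 3.11.15, pandas 2.3.3, numpy 2.4.6 and matplotlib 3.10.9 were used. The fits were tested on simulated data.

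The members, the list of related names, the comparators, the markers and the tests were chosen with earlier results of these data known. Named miRNAs are the members, the related list, the 5 nearest to each member over the group means and 4 comparators called often. Marker lists were for hepatocytes, red blood cells, leukocytes, stellate and smooth muscle, bile duct and epithelium, and endothelium. Their summed levels had r between -0.40 and 0.34 with miR-466b-5p over the 36 treated livers, a description, and their part in the results was not tested. In treated livers the sums lay between 774 and 9200 normalized RPM for red blood cells, 1845 and 5346 for leukocytes, 28228 and 56629 for stellate and smooth muscle, 305 and 1369 for bile duct and epithelium, and 17079 and 29332 for endothelium. Alternatives were TMM, DESeq2's size factors or library size alone, no filter or a stricter one, edgeR's exact test, DESeq2 1.42.0, mean or summed precursor rows, pooled controls, a single fit, adjusted calls, another pseudocount of 1, and each library left out in turn. Added after the data were seen were correlations without control 3-d replicate 1, likeness without the 3-d controls and differences of high minus low dose between time points. Limits of detection of 3 reads cover counting error only. GRCr8 coordinates are those of the RefSeq sequence table, and no coordinates of rn5 are given.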

Additional observations from a re-analysis of the deposited data

Results flagged for a closer look

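The difference between high and low dose changed from 7 to 14 days for miR-466b-5p. High minus low dose was 0.62 on the log2 scale at 7 days and -1.34 at 14 days, and the change of -1.96 (SE 0.44) passed in the single edgeR fit of 48 libraries (edgeR adjusted p = 0.00497), a contrast chosen after the data were seen, in which 2.99% of the 301 miRNAs passed. All 3 high dose livers were below all 3 low dose livers at 14 days, and 2 of 3 were above them at 7 days. Such separations between doses were not counted over all tested miRNAs. The median of all miRNAs in this contrast was -0.32 with upper quartile normalization and -0.07 with TMM. Without the filter on low counts the change was -1.55 and did not pass (edgeR adjusted p = 0.0845), and the call held with each library left out, between -2.14 and -1.78. For miR-466c-5p the same change was -1.15 (SE 0.40) and did not pass (edgeR adjusted p = 0.0868).

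The summed members showed the same change, -1.31 (SE 0.37, edgeR adjusted p = 0.0468). With only the 5p names summed it was -1.29 and did not pass (edgeR adjusted p = 0.056), and the call was lost in 25 of the 48 fits without 1 library.

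miR-466d, below the filter on low counts, had 7 reads in high 3-d replicate 23, the highest value of any library, against at most 2 in a control. In all it had 2 reads in 1 of the 12 controls and 17 reads in 8 of the 36 treated livers, of which 13 reads were in 4 high dose livers. Only 1 library was above the limit of 3 reads.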

How the results depend on the processing

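No paired analysis was possible because the rats are numbered from 1 to 48 and no number is shared between groups. The number of conditions called stayed within 1.5 times for miR-466b-5p, miR-466c-5p and the sum under every alternative run, and with 1 library left out it was 8 to 10, 5 to 8 and 6 to 8. The number of dose differences that passed was less stable. For miR-466b-5p (2) it was 1 with library size alone, 1 without a filter and 4 in fits of the 6 libraries compared. For miR-466c-5p (3) it was 1 with library size alone and 1 with at least 5 RPM in every library. With 1 library left out it was 1 to 6 for miR-466b-5p (6 without high 3-d replicate 24, 1 without middle 7-d replicate 34 among others), 2 to 4 for miR-466c-5p and 1 to 4 for the sum. The 28-d against 3-d control difference of miR-466b-5p (-0.85) was -0.84 without a filter and -0.89 in 6-library fits, not passing in either, and -1.20 to -0.68 with 1 library left out, where the call was lost in 10 fits. The causes were not tested. Adding the 4 identical precursor rows of miR-466b-5p lowers the median log2 ratio of miR-466c-5p to it from 2.52 to 0.52 by construction, and with 1 library left out it was 2.50 to 2.53. The correlation of the 5p members in 12 controls, -0.20, turned to 0.79 without the 2 livers farthest from the median. After subtraction of group means, 0 of the 5 nearest miRNAs of miR-466b-5p and 1 of those of miR-466c-5p were the same. This likeness used all 48 libraries, control 3-d replicate 1 among them, and was not computed without it. The 5p members had r = 0.55 with each other there, against 0.91 within groups in the 36 treated livers. Depth limits the 3p members most, and in control 3-d replicate 1 it limits all members.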
